A study of Mus musculus with 14 samples.

Results

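The p300 landscape of mouse embryonic stem cells (mESCs) was set against that of gastruloids by chromatin immunoprecipitation and sequencing. p300 carried V5 and the biotin ligase miniTurboID at its own gene, in an E14 triple reporter line that expresses BRA-GFP and SOX17-RFP. Every p300 library and both inputs came from cells with this tagged allele, so no untagged control is part of the comparison. The mESCs were grown on gelatin in serum with LIF. Gastruloids were made from 300 sorted cells per well, were given 3 µM CHIR99021, an activator of Wnt signalling, after 48 h, and are described as 120 h old. Each cell type had 2 immunoprecipitated libraries and 1 input, and the labels do not say whether the replicates were separate cultures. A region was kept for a cell type when overlapping peaks were found in both of its replicates, after peaks that touched an input peak had been dropped. This gave 31014 mESC regions and 53025 gastruloid regions, or 70423 merged regions of the 82636 that the 12 immunoprecipitations of the series held in all.

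p300 is a histone acetyltransferase. It does not recognise DNA sequence itself but is brought to enhancers and promoters by transcription factors, where it acetylates histones, including lysine 27 of histone H3, and other proteins. In embryonic stem cells it is known for its presence at enhancers of the pluripotency network. Gastruloids are aggregates of stem cells that break symmetry after a Wnt pulse and form an axis with tissues of the early embryo, such as tail bud, somites and neural tube. In a mixed aggregate, a p300 site used by few cells and a site used weakly by many cells cannot be told apart.

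After removal at input peaks, mESC replicates 1 and 2 kept 44506 and 35371 peaks and gastruloid replicates 1 and 2 kept 63117 and 75346, so every gastruloid list was longer than every mESC list. The number of fragments stacked at each summit was recovered from the authors' fold and −log10 p, and had a median of 32 and 30 in mESCs against 24 and 18 in gastruloids. The weakest peaks rested on 10 and 9 fragments in mESCs and on 8 and 6 in gastruloids. Being listed as a peak is the only measure of binding used, and peak heights are read within a library, never between cell types. A region is called gastruloid-only when both gastruloid libraries and neither mESC library held it, mESC-only in the reverse case, and shared when both replicates of both cell types held it.

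The start-site windows that carried the strongest peaks of each class are shown so that their CpG content can be compared. Each window is the RefSeq sequence (build GRCm38.p6) from 250 bases before to 50 bases after an annotated start, written 5′ to 3′ on the strand of the gene, with every CpG dinucleotide in capitals. The strongest windows that were gastruloid-only belonged to Dll3, a Notch ligand of the segmenting mesoderm, at chr7:28301736-28302035 on the minus strand, to Hoxb1, an anterior Hox gene, at chr11:96365508-96365807 on the plus strand, and to Fzd10, a Wnt receptor gene, at chr5:128600856-128601155 on the plus strand.
Dll3: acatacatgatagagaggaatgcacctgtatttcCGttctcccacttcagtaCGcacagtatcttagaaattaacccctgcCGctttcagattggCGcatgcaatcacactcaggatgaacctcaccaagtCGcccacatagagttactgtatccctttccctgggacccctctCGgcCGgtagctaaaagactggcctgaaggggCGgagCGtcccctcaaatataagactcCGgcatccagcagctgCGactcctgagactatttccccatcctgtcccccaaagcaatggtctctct
Hoxb1: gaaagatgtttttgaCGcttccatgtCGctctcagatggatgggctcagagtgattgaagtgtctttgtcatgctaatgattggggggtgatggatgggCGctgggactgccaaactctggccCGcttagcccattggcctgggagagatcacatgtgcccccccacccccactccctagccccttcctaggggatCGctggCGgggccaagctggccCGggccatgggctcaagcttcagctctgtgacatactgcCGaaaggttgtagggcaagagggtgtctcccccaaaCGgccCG
Fzd10: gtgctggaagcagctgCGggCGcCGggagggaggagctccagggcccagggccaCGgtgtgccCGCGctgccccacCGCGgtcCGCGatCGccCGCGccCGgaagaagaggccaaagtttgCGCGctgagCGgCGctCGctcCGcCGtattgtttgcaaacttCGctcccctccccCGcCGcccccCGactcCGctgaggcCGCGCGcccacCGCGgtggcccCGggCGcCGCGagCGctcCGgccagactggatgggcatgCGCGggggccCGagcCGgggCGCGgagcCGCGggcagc

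The Dll3 window held 11 CpGs, the Hoxb1 window 10 and the Fzd10 window 45, the last being a dense CpG island sequence. At Dll3 the peaks rested on 248 and 232 fragments in the gastruloid replicates, with folds of 18.02 and 21.6. At Hoxb1 they rested on 288 and 358 fragments (folds of 10.3 and 15.2), and at Fzd10 on 250 and 233 (9.84 and 11.7). Neither mESC library had a peak in any of these windows.

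The windows of T, the gene of the mesodermal factor Brachyury, at chr17:8434173-8434472, and of Sp5, a zinc-finger gene induced by Wnt signalling, at chr2:70474673-70474972, both on the plus strand, are given because Brachyury is a reporter protein of the line and Sp5 is another protein profiled in the series.
T: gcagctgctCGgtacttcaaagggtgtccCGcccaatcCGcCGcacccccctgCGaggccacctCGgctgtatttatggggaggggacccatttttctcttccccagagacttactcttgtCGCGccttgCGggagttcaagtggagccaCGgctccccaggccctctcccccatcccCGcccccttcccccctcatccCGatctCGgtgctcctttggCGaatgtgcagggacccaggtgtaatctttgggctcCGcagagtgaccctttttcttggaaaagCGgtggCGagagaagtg
Sp5: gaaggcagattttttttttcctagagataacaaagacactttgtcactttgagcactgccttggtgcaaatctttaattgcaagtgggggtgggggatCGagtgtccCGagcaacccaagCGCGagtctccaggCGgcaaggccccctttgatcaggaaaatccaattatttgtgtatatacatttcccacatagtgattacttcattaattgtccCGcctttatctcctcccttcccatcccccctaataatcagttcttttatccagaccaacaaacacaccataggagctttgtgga

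Both windows were gastruloid-only. The T window held 17 CpGs and its peaks rested on 55 and 43 fragments, with folds of 6.12 and 6.54. The Sp5 window held 6 CpGs and contained CTTTGAT, the core of Tcf and Lef sites, with peaks of 242 and 182 fragments and folds of 11.4 and 11.1.

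The strongest mESC-only windows belonged to Fbxo27, an F-box gene, at chr7:28692894-28693193 on the plus strand, to Klk1, a kallikrein protease gene, at chr7:44225110-44225409 on the plus strand, and to Shroom2, an actin-binding protein gene, at chrX:152644268-152644567 on the minus strand.
Fbxo27: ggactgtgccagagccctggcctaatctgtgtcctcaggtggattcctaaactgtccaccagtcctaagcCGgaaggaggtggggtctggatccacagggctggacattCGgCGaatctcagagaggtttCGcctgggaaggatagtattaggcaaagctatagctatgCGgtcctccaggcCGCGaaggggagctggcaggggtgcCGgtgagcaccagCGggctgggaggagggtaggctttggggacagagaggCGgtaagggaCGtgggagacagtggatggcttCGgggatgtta
Klk1: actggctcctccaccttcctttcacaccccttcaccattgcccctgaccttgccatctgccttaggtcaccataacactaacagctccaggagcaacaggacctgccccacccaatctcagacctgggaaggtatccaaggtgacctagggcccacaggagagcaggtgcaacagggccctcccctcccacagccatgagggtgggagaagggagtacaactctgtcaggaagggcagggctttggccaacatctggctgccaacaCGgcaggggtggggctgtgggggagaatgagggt
Shroom2: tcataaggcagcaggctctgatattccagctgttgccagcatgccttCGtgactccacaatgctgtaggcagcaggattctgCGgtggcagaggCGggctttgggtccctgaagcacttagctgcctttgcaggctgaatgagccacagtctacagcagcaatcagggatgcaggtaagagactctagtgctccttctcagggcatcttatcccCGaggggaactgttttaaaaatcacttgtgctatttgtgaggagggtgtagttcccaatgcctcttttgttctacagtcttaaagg

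These windows held 12, 1 and 4 CpGs in that order. The 12 of Fbxo27 were more than the 11 of Dll3 and the 10 of Hoxb1, so the printed windows do not separate the classes by CpG number. The peaks rested on 545 and 390 fragments at Fbxo27, on 203 and 142 at Klk1 and on 209 and 142 at Shroom2 in the mESC replicates, and no gastruloid library had a peak in these windows. Only the Klk1 window stood alone: at Fbxo27 and at Shroom2 another annotated start lies so close that its window overlaps the one shown, and all 4 libraries had a peak in that window. The strongest shared window, at chr9:120149492-120149791 on the plus strand before Mobp, a myelin protein gene, held 5 CpGs and none of the motifs searched.
Mobp: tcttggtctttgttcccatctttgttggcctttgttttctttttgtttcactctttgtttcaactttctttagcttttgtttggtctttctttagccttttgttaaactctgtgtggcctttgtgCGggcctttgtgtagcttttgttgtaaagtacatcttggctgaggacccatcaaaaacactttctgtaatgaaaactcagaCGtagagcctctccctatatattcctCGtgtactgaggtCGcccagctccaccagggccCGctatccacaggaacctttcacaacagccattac

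At Mobp the summit held 4145 and 2916 fragments in mESCs and 668 and 630 in gastruloids, with folds of 34.4, 34.2, 27.5 and 35.99. The next strongest shared windows, at 1700019D03Rik and at Cnpy1, held 10 and 34 CpGs.

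Most gastruloid regions, and a smaller share of the mESC regions, were absent from both libraries of the other cell type. Of the gastruloid regions, 34812 were gastruloid-only (65.7%), and of the mESC regions, 13793 were mESC-only (44.5%). A further 13540 loci were shared. When every list was reduced to its 35371 strongest peaks, 17961 regions were gastruloid-only and 17563 were mESC-only. That setting left 28911 gastruloid and 28844 mESC regions, so near-equal counts follow from it. It cannot show what the excess with full lists came from. At −log10 q of at least 5, 29491 regions were gastruloid-only and 13905 were mESC-only. Without gastruloid replicate 1 there were 53609 gastruloid-only regions, and without mESC replicate 2 there were 22393 mESC-only regions. In these settings a peak in the remaining library of that cell type was enough for a region. Both counts thus lack the filter by 2 replicates, and their rise does not measure dependence on a library. Measured in base pairs, the intersection over the union was 57.8% between the mESC replicates and 54.2% between the gastruloid replicates, and between 14.9% and 16.7% in the 4 pairs across cell types. With lists of equal length the same values were 62.2% and 56.9% for replicates and 15.0% to 15.5% across cell types, so that all pairs of replicates overlapped more than all pairs across cell types under both settings.

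The strongest mESC sites were largely still listed in gastruloids, whereas many of the strongest gastruloid sites had no mESC counterpart. In the strongest decile of mESC peaks, 83.8% and 87.1% of those of replicate 1 and 87.1% and 90.1% of those of replicate 2 were found in gastruloid replicates 1 and 2. In the strongest decile of gastruloid peaks, 52.9% and 50.3% of those of replicate 1 and 50.9% and 47.8% of those of replicate 2 were found in mESC replicates 1 and 2. With lists of equal length the same shares were 79.5% to 79.8% for mESC peaks and 52.6% to 53.6% for gastruloid peaks. In both mESC lists the overlap was lower from decile to decile over the first 6, and in the weakest decile it was above the lowest value, while in both gastruloid lists it was lowest in the weakest decile. The median fold of the mESC regions away from starts was 11.1 and 9.79 at shared regions and 6.87 and 6.03 at mESC-only regions. In gastruloids it was 7.69 and 8.67 at shared and 6.13 and 6.94 at gastruloid-only regions, so away from starts the shared regions were the higher within each list. At starts the order was the reverse in mESCs, with 5.18 and 4.69 at shared and 5.97 and 5.36 at mESC-only regions, and the same in gastruloids, with 5.95 and 6.67 at shared and 4.92 and 5.39 at gastruloid-only regions.

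**Figure D1:**
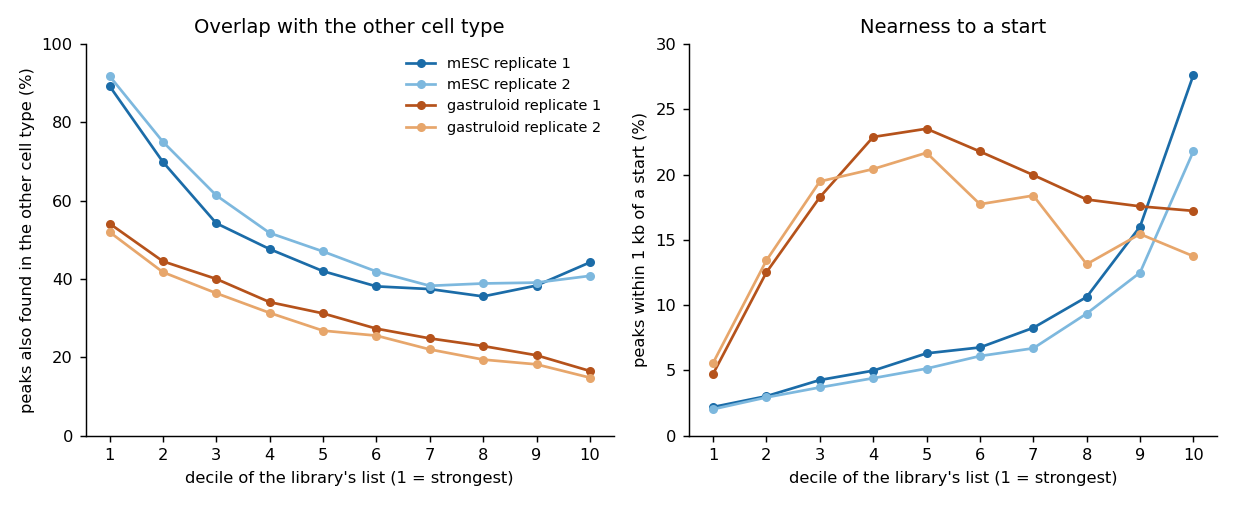
Left, share of peaks that were also found in at least 1 library of the other cell type (y axis, %) by decile of peak strength in each library (x axis, 1 is the strongest); right, share of peaks within 1 kb of a transcription start (y axis, %) by the same deciles. Points are single libraries: the mESC lines start higher on the left and lie lower on the right over most deciles, and reach 27.6% and 21.8% in the weakest decile.

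At shared loci the summits also sat close together. Over 13540 loci, the distance between the summits of the strongest peaks had a median of 20 bp between mESC replicates, 28.5 bp between gastruloid replicates, and 31 to 34 bp across cell types. The share of loci with summits more than 200 bp apart was 3.38% and 5.20% between replicates and 11.5% to 11.9% across cell types.

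p300 was at many more transcription starts in gastruloids than in mESCs. Of 21263 start windows of protein-coding genes, 11.4% and 6.82% held a peak in the mESC replicates and 46.8% and 45.7% in the gastruloid replicates. The libraries of the 2 cell types did not overlap in this share, and with lists of equal length the values were 5.16% and 6.82% in mESCs and 28.5% and 24.9% in gastruloids. By windows, 6630 were gastruloid-only (31.2%), 108 were mESC-only (0.508%) and 864 were shared. With lists of equal length the counts were 3426, 191 and 453. Since annotated starts can lie close together, the counts were also made by gene, with all windows of a gene joined: 5658 of the 17492 with a window had a gastruloid-only start (32.3%), 833 a shared start (4.76%) and 72 an mESC-only start (0.412%).

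The same contrast held among the peaks that the other cell type lacked. Of these, 17.5% and 15.7% lay within 1 kb of a start in gastruloids and 3.09% and 2.77% in mESCs, or 16.6% ± 1.29 against 2.93% ± 0.224 (SD, n = 2). The difference of 13.7 percentage points had p = 0.333 in a two-sided exact permutation test over the 4 libraries, which is the smallest value that 2 against 2 libraries can give. It was 14.1 points with lists of equal length.

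**Figure D2:**
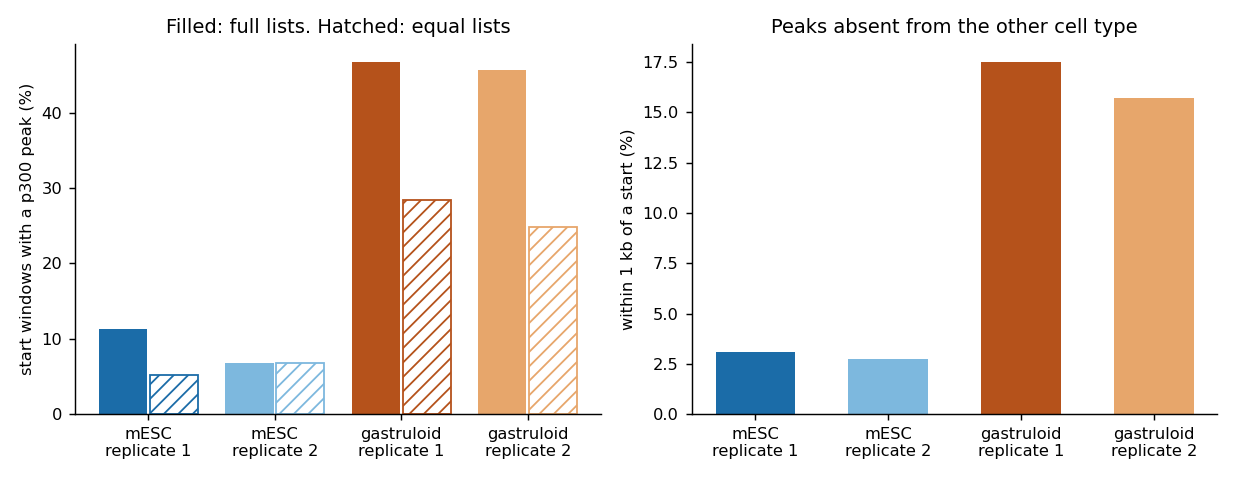
Left, share of the 21263 start windows that held a p300 peak (y axis, %) in each library, with full lists (filled bars) and with lists of equal length (hatched bars); right, share of the peaks absent from the other cell type that lay within 1 kb of a start (y axis, %). Bars are single libraries without error bars; both gastruloid bars are above both mESC bars in each comparison.

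Peaks at starts also differed in shape and rank. Gastruloid-only regions at starts had a median width of 811 bp, and 28.2% of them were wider than 1 kb, whereas those away from starts had a median of 451 bp and 2.35% were wider than 1 kb. mESC-only regions were 457 bp at starts and 451 bp elsewhere. At shared loci the gastruloid region at a start was 1003 bp wide and the mESC region 581 bp, values that also carry the list's own threshold. In mESCs the peaks at starts stood at the weak end of the list: 2.202% and 2.04% of the strongest decile and 27.6% and 21.8% of the weakest lay within 1 kb of a start. In gastruloids the shares were 4.74% and 5.57% in the strongest decile, 23.5% and 21.7% in the fifth, and 17.2% and 13.7% in the weakest. Starts held just under the threshold of the mESC lists cannot be told from starts without p300 in these files.

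Gastruloid-only and shared start windows were rich in CpG, and mESC-only windows were not. The median window held 23 CpGs if gastruloid-only, 24 if shared, 5 if mESC-only, 4 when no library had a peak, and 13 over all windows. The ratio of observed to expected CpGs had a median of 0.814 for gastruloid-only windows, 0.779 for shared windows and 0.215 for mESC-only windows. Library by library, windows with a peak had a median of 23 and 22.5 CpGs in mESCs and 23 and 23 in gastruloids, while the share of windows with an observed to expected ratio over 0.6 was lower in both mESC libraries, at 73.6% and 71.0% against 80.8% and 80.7%.

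Short motifs were counted on both strands of the 300 bases, as a description of letters and not of sites. GGGCGG, the GC box of Sp and Klf factors, was found in 70.03% of the windows that were gastruloid-only, in 75.5% of those shared and in 27.8% of those that were mESC-only, against 46.2% of all windows. CCGGAAGT, the core of Ets sites, was in 10.6%, 4.75% and none of the 108 mESC-only windows, against 5.15% of all. TGACTCA, the site of AP-1, was in 2.58%, 4.51% and 16.7%, against 4.66% of all. AGGTCA, the core element of many nuclear receptor sites, was in 10.05%, 16.3% and 25.0%, against 14.7% of all, and CAGGTG, an E-box, was in 17.3%, 18.4% and 35.2%, against 19.7% of all. TATAAA, the TATA box, was in 5.78%, 4.98% and 9.26%, all below the 12.6% of all windows, and CTTTGAT, printed above at Sp5, was in 2.47%, 2.199% and 4.63%, against 3.22% of all. CCAAT, the site of NF-Y, was in 38.7%, 33.4% and 35.2%, against 38.2% of all. The site of Creb, TGACGTCA, was in 4.09%, 2.89% and none, against 2.23% of all. The YY1 site, searched as AAGATGGCG, was in 4.10%, 1.62% and none, against 1.83% of all. The octamer of Oct factors, ATGCAAAT, was in 1.27%, 2.55% and 1.85%, against 1.66% of all. The motif AGATAAG, which Gata factors recognise, was in 1.36%, 1.04% and 5.56%, against 2.64% of all. The classes also differ in CpG number, and the part of this in the motif shares was not tested.

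Regions were assigned to the nearest protein-coding start within 100 kb, with either gene end used where no start was given. Of 13870 genes with a region found in 1 cell type only, 9706 had more gastruloid-only regions (70.0%) and 2468 had more mESC-only regions (17.8%). With lists of equal length the numbers were 5110 and 4972. Counting all peaks of each library, 8140 of 17564 genes had more in both gastruloid libraries than in either mESC library (46.3%), and 1305 had the reverse (7.43%).

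The largest gastruloid excess, 17 regions, was found at both Frmd4a, a gene of a FERM domain scaffold protein, and Trabd2b, whose product cleaves Wnt proteins. Frmd4a had 11 and 7 peaks in the mESC replicates and 27 and 34 in the gastruloid replicates, with 18 gastruloid-only regions, 1 mESC-only and 5 shared. Trabd2b had 0 and 1 against 19 and 32 peaks. Pax3, a regulator of somites and dorsal neural tube, had 2 and 2 against 18 and 20. Esrrg, an orphan nuclear receptor gene, had 3 and 2 against 16 and 21, and Ntn1, which encodes the guidance cue netrin, had 11 and 12 against 24 and 33. The other 5 of the 10 genes with the largest excess were Gse1, Zfp608, Prickle2, Creb5 and Thsd4, where gastruloid-only regions outnumbered mESC-only ones by 12 to 16. The libraries of the 2 cell types did not overlap at any of the 10 genes, which the choice of the genes required.

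The mESC excesses were smaller. Cldn14, a tight-junction claudin gene, had 10 and 9 mESC peaks against 4 and 6 gastruloid peaks, with 7 mESC-only regions and no gastruloid-only region. Tfap2c, which encodes a factor of trophoblast and germ cells, had 16 and 17 against 9 and 11, and Lifr, the LIF receptor gene, had 13 and 14 against 9 and 11. Pfkp, a glycolytic enzyme gene, had 9 and 8 against 2 and 1. Pik3c3, Irf2bpl, Tbl1xr1, Tbc1d8, Rtkn2 and Plcb4 completed the 10, where mESC-only regions outnumbered gastruloid-only ones by 5 to 7. At Rtkn2 the excess turned to 2 more gastruloid-only regions when only regions within 20 kb were assigned.

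**Figure D3:**
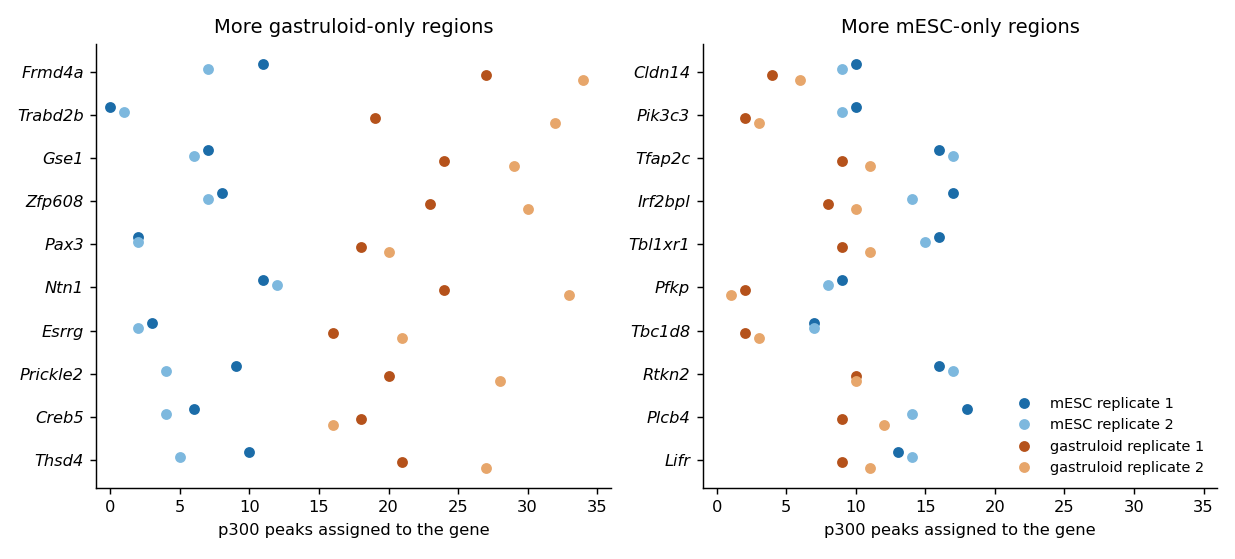
p300 peaks assigned to each gene (x axis, number of peaks) in each of the 4 libraries, for the 10 genes with the largest excess of gastruloid-only regions (left) and of mESC-only regions (right). Points are single libraries; the genes were chosen for libraries that do not overlap, and the gaps on the left reach 19 and 32 against 0 and 1 peaks at Trabd2b.

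Gene lists were read against the assigned single-type regions of all genes, of which 71.1% were gastruloid-only, or 49.5% with lists of equal length. The members and lists were chosen with earlier results of these data known, so the counts are given as descriptions and no list was tested.

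Hox genes, which set position along the body axis, stood highest. In the Hoxa cluster 19 of 19 single-type regions were gastruloid-only, in Hoxb 30 of 31, in Hoxc 21 of 23 and in Hoxd 12 of 12. With lists of equal length the shares were 100%, 92.0%, 88.9% and 100%. Hoxa2 had no peak in either mESC library and 6 and 6 in the gastruloid libraries, Hoxc6 had 0 and 0 against 5 and 7, and Hoxd4 had 0 and 0 against 6 and 7.

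The Hoxb cluster held the longest run of gastruloid-only regions, where a run joins regions less than 12.5 kb apart. The run held 24 regions over 116 kb, from Hoxb1 to Hoxb9, with 25 and 30 gastruloid peaks and 5 and 1 mESC peaks inside it. Runs of 12 regions lay in the Hoxd and Hoxc clusters, and runs of 10 lay in Hoxa2 to Hoxa4 and beside Gbx2, a homeobox gene of the caudal epiblast and hindbrain, which had 2 and 2 mESC peaks against 11 and 12 gastruloid peaks in all. In all, 158 gastruloid-only runs had 5 or more regions and 8 mESC-only runs did. Such runs took in 2.70% of the 34812 regions in the first class and 0.319% of the 13793 in the second. The classes thus differ in size, and how far this accounts for the difference in runs was not tested. The longest mESC-only run had 8 regions over 50.3 kb at Bmp4, a BMP ligand gene, with 9 and 9 mESC peaks and 3 and 5 gastruloid peaks inside it. Other mESC-only runs of 5 or 6 regions lay at Pcbp1, Rnf220, Plaur, Mbd6, Socs3, Nid1 and Pim3.

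**Figure D4:**
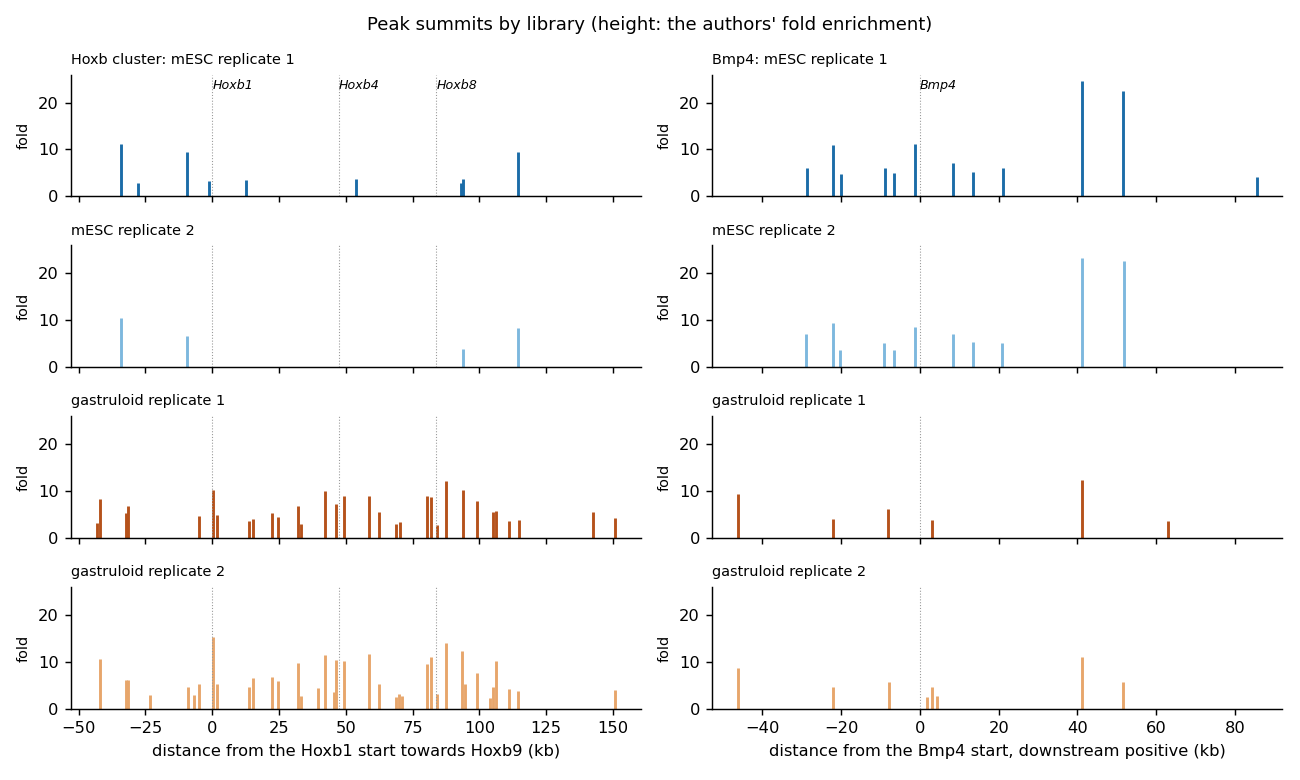
Summits of p300 peaks in each library around Hoxb1 (left) and Bmp4 (right), with distance from the start of the gene in kb on the x axis and the authors' fold enrichment on the y axis; dotted lines mark annotated starts. Each bar is 1 peak, and heights are for reading within a library only: the stretch from Hoxb1 towards Hoxb9 is filled in both gastruloid libraries, and the stretch around the Bmp4 start in both mESC libraries.

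The streak list and the somite list followed the Hox clusters. In the streak and tail bud list, 91 of 103 single-type regions were gastruloid-only (88.3%). Of its 19 genes with such regions, 18 had more gastruloid-only and 1 more mESC-only regions, against 70.0% and 17.8% of all such genes. T had 0 and 0 mESC peaks against 6 and 7 gastruloid peaks, and Wnt5b, a Wnt ligand gene, had 2 and 1 against 11 and 13. In the somite and paraxial mesoderm list the count was 106 of 118 (89.8%). Here 18 of the 19 genes with such regions had more gastruloid-only and none more mESC-only regions. Tbx6, a regulator of presomitic mesoderm, had 0 and 0 against 3 and 3 peaks, and Uncx, a homeobox gene of the caudal somite compartment, had 1 and 0 against 11 and 11. With lists of equal length the shares were 80.6% and 82.1%, above the 49.5% of all genes. Neural tube genes had 78.4% and neural crest genes 84.0%, or 58.7% and 56.8% with lists of equal length. Endoderm and notochord genes had 79.8%, cardiac and lateral plate genes 77.6%, and mesenchyme and matrix genes 81.7%, or 74.5%, 55.6% and 53.7% with lists of equal length. Endothelium and blood genes had 72.7%, epithelial junction genes 66.2% and adult tissue genes 70.8%, or 42.9%, 46.9% and 42.9%. Ribosomal protein genes had 80.8% of 26 single-type regions, and 61.5% of 13 with lists of equal length. Their share was thus above those of the neural tube and cardiac lists in both settings. Oxidative phosphorylation genes had 73.1%, or 42.9% with lists of equal length. This list and the endothelium and blood list were above the share over all genes with full lists and below it with lists of equal length.

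In the Notch pathway, whose oscillating targets time the formation of somites, 63 of 78 single-type regions were gastruloid-only (80.8%). Hes7, the core oscillator of the mouse segmentation clock, had 0 and 0 mESC peaks against 4 and 4 gastruloid peaks. The ligand gene Dll3 had 0 and 0 against 1 and 1, all in the start window shown above, and Mesp2, which sets segment borders, had 0 and 0 against 1 and 2. Hes1, a target used in many tissues, was different: it had 21 and 18 against 20 and 29 peaks, which overlapped, and its excess of 5 gastruloid-only regions turned to 2 more mESC-only with lists of equal length. Of the 18 Notch genes with a start window, 13 had a gastruloid-only start, against 32.3% of all genes with a window.

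Of the single-type regions at retinoic acid genes, 82.4% were gastruloid-only, or 69.1% with lists of equal length, with the receptor gene Rxra at 5 and 5 against 11 and 15 peaks and the degrading enzyme gene Cyp26b1 at 5 and 3 against 8 and 8. Aldh1a3, which makes retinoic acid, had 4 regions of each kind. Wnt pathway genes had 75.4%, or 57.3% with lists of equal length, led by the effector gene Tcf7l2 with 11 and 8 against 24 and 24 peaks, and Lef1 had 2 and 2 against 12 and 16. FGF pathway genes had 69.0%, under the 71.1% of all genes, and 52.2% with lists of equal length, over the 49.5% of all genes. This list did not keep its side either. Etv5, a target of the pathway, had 7 regions of each kind.

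Lists of LIF signalling, the naive state and germ cells stood lowest, whereas the list of formative and primed pluripotency did not. The LIF and JAK-STAT list, the pathway that holds mESCs in self-renewal, held 39 mESC-only regions against 30 that were gastruloid-only (43.5%), and 28.6% with lists of equal length. Beside the receptor Lifr, the feedback inhibitor gene Socs3 had 13 and 11 mESC peaks against 8 and 8 gastruloid peaks. The kinase genes Pim1 and Pim3 had 18 and 12 against 9 and 10, and 7 and 7 against 4 and 3. Mycn, a Myc family gene, had 13 and 12 against 8 and 10. The mESC libraries were above the gastruloid libraries at all 4 of these genes, although at Pim3 gastruloid-only regions were in excess by 1 when only regions within 20 kb were assigned. The list was not uniform. Gastruloid-only regions were in excess at 7 of its 14 genes with single-type regions and mESC-only regions at 5. Over all such genes the shares were 70.0% and 17.8%. By peaks, both gastruloid libraries were above both mESC libraries at 6 genes and below them at 5. Over all genes with a peak these shares were 46.3% and 7.43%. Among the 6, Stat3 had 2 and 2 mESC peaks against 5 and 4 gastruloid peaks, and Jak1 had 3 and 1 against 5 and 5.

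Naive pluripotency genes had 47 regions of each kind (50.0%), and 25.0% with lists of equal length. Esrrb, an orphan nuclear receptor of the naive network, had 15 and 15 mESC peaks against 12 and 13 gastruloid peaks. Around Nanog no region was found in 1 cell type alone and 2 were shared, and around Pou5f1, which encodes Oct4, 1 was mESC-only and 2 were shared. By peaks, Nanog had 2 and 2 in mESCs against 4 and 3 in gastruloids, and Sall4 had 10 and 9 against 15 and 20. Both gastruloid libraries were above both mESC libraries at 5 of the 20 listed genes and below them at 7. Of its 14 genes with a window, 3 had a gastruloid-only start (Esrrb, Klf2 and Klf4), against 32.3% of all genes with a window. Sox2, which serves stem cells and neural tissue, had 17 and 14 against 14 and 18 peaks, which overlapped, and its excess of 1 gastruloid-only region turned to 5 more mESC-only with lists of equal length. Across the list 64 regions were shared. The list of formative and primed pluripotency covers the states that follow the naive one. In it 75 of 100 single-type regions were gastruloid-only, and 64.5% with lists of equal length. Gastruloid-only regions were in excess at 13 of its 16 genes with such regions and mESC-only regions at none. Over all such genes the shares were 70.0% and 17.8%. Otx2, a homeobox gene of the formative state, had 16 and 13 mESC peaks against 14 and 16 gastruloid peaks, which overlapped. Genes of the 2-cell stage and germ cells had 47.2%, or 24.6% with lists of equal length, and trophoblast genes had 53.2%, or 40.0% with lists of equal length.

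The Nodal and BMP list was split. Its share was 58.0% with full lists and 34.3% with lists of equal length, below the share over all genes in both settings. Gastruloid-only regions were in excess at 11 of its 16 genes with single-type regions and mESC-only regions at 5. Over all such genes the shares were 70.0% and 17.8%. Bmp2 and Bmp4, ligand genes of the same family, pointed in opposite directions: Bmp2 had 2 and 2 mESC peaks against 12 and 15 gastruloid peaks, and Bmp4 had 13 and 11 against 6 and 8. The inhibitor gene Smad7 had 9 and 8 against 4 and 8 peaks. Lefty1, a Nodal antagonist gene, had 2 shared regions and none of either kind.

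**Figure D5:**
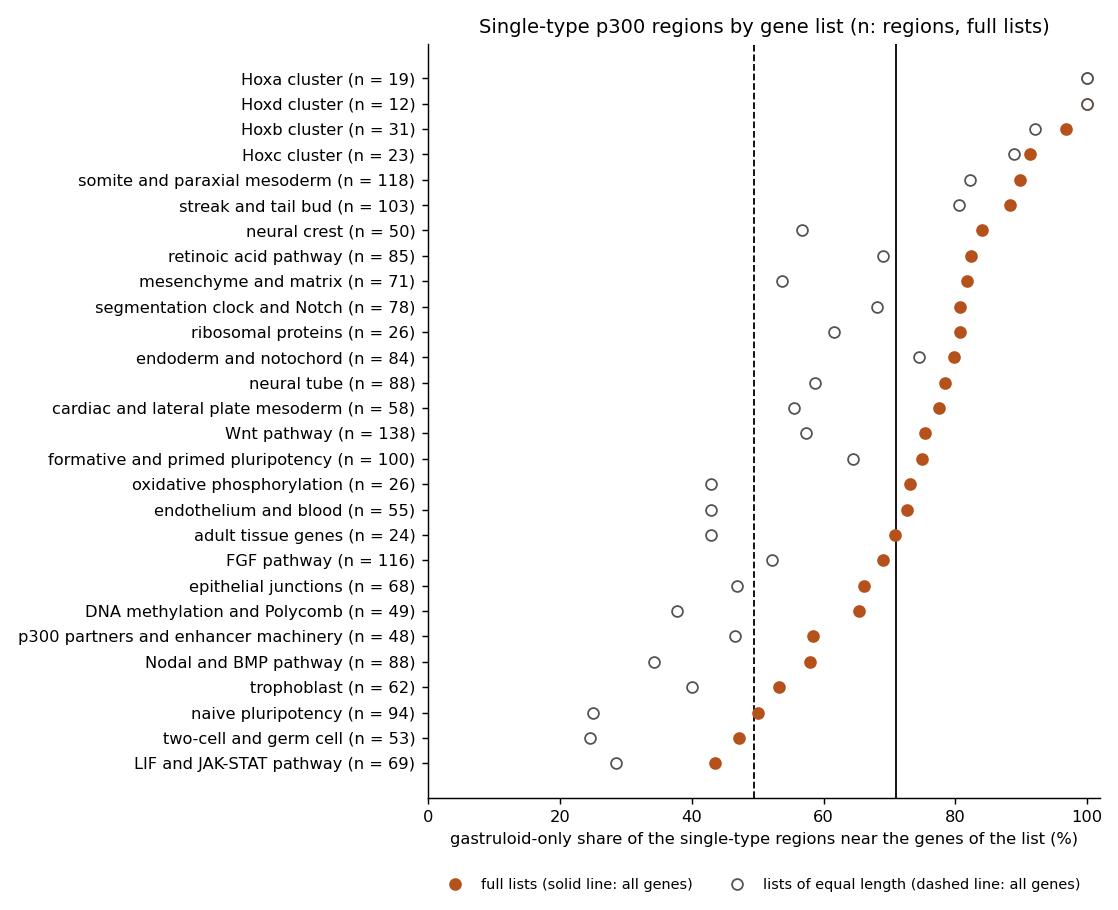
Share of the single-type p300 regions near the genes of each list that were gastruloid-only (x axis, %), with full lists (filled) and with lists of equal length (open), and the number of regions with full lists beside each name; vertical lines give the shares over all genes, 71.1% (solid) and 49.5% (dashed). Read against the line of its own setting, each marker of the Hox, somite and streak lists lies to the right, and each marker of the LIF, germ cell and naive pluripotency lists to the left.

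Gene lists differed in where their gastruloid-only regions lay. Over all genes, 25.1% of the assigned gastruloid-only regions were within 1 kb of a start and 3.21% of the mESC-only regions. Among ribosomal protein genes 14 of 21 gastruloid-only regions were at a start (66.7%), and among oxidative phosphorylation genes 9 of 19 (47.4%). Of the 13 ribosomal genes with a start window, 11 had a gastruloid-only start, against 32.3% of all genes with a window. The gastruloid libraries held 11 and 12 starts of this list and the mESC libraries 0 and 0, where the mESC libraries held 2173 and 1325 of the 17492 starts over all genes. In the somite list only 6 of 106 gastruloid-only regions were at a start (5.66%), and in the streak list 11 of 91 (12.1%), so that the excess of these genes lay away from their starts. Away from starts alone, 89.3% of the single-type regions of somite genes, 87.0% of streak genes and 37.7% of LIF pathway genes were gastruloid-only, against 65.5% over all genes.

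Genes of the enhancer machinery, including partners of p300, were below the share over all genes. Their own share was 58.3%, or 46.5% with lists of equal length, and 11 of 28 gastruloid-only regions were at a start. Ep300 itself, which encodes p300, had 3 and 0 mESC peaks against 5 and 3 gastruloid peaks, and its start was gastruloid-only, with 46 and 37 fragments. Crebbp, the gene of the paralogue CBP, had a gastruloid-only start as well, with 39 and 34 fragments. Smarca4, which encodes a chromatin remodelling ATPase, had 3 and 4 against 1 and 1 peaks, and Med13, a Mediator subunit gene, had 1 and 0 against 6 and 9. DNA methylation and Polycomb genes had 65.3%, or 37.8% with lists of equal length, also below all genes, and 13 of 18 with a window had a gastruloid-only start, against 32.3% of all genes with a window. Dnmt3a, a de novo methyltransferase gene, had 8 and 7 against 13 and 17 peaks, while Tet2, a gene of methylcytosine oxidation, had 9 and 9 against 7 and 7.

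MicroRNA genes inside the Hox clusters lie among the regions already counted for the clusters. Their counts within 10 kb take in some of those same regions and are not a separate observation. The 4 mature sequences are given as RefSeq has them (build GRCm38.p6), with the seed, bases 2 to 8, in capitals, because their genes lie inside the 4 Hox clusters and fall into 2 families by seed.
miR-10a-5p: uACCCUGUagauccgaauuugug
miR-10b-5p: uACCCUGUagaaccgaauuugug
miR-196a-5p: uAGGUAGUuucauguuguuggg
miR-196b-5p: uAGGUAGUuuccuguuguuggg

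Mir10a, at chr11:96317186-96317208 for the mature strand, had 1 and 0 peaks within 10 kb in the mESC replicates and 3 and 5 in the gastruloid replicates, and Mir10b, at chr2:74726074-74726096, had 0 and 0 against 4 and 5. Mir196b, at chr6:52230129-52230150 on the minus strand, had 0 and 0 against 2 and 2, Mir196a-1 had 2 and 1 against 4 and 6, and Mir196a-2 had 0 and 0 against 3 and 2. At all 5 genes gastruloid-only regions were in excess, against 31.9% of the 1005 miRNA genes counted, which leave out chromosome 18, and 8.76% with mESC-only regions in excess. Of the 1005, 547 had no single-type region within 10 kb, and of the other 458, gastruloid-only regions were in excess at 321. The stem cell cluster from Mir290a to Mir295 had no peak within 10 kb in any library, and Mir302 and Mir367, another stem cell cluster, had 1 shared and 1 gastruloid-only region.

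The other proteins of the series were read at the same regions, by the share of regions that overlapped a peak in each library. RXRα in mESCs, whose lists did not enter the classes, was at 41.4% and 22.3% of mESC-only regions, at 74.8% and 51.4% of shared loci and at 16.5% and 9.58% of gastruloid-only regions. Away from starts the gastruloid-only values were 8.89% and 4.55%, and at starts 49.5% and 31.3%, so 3238 of the 5751 gastruloid-only regions with an RXRα peak in mESC replicate 1, and 2049 of the 3335 in replicate 2, were at starts. RXRα in gastruloids was at 2.83% and 0.210% of mESC-only regions, at 26.5% and 4.48% of shared loci and at 29.1% and 3.31% of gastruloid-only regions. Its lists held 29867 and 3111 peaks. Sp5, a zinc-finger factor of the Wnt response, was at 81.2% and 63.1% of gastruloid-only regions at starts and at 10.1% and 5.90% away from them. At shared loci the Sp5 shares were 82.0% and 71.5% at starts and 10.9% and 6.99% away from them. At the 340 mESC-only regions at starts they were 6.47% and 3.24%, and away from starts 0.684% and 0.223%. Zeb2, a repressor of epithelial genes, was at 91.0% and 37.9% of gastruloid-only regions at starts and at 28.6% and 7.89% away from them. At shared loci the Zeb2 shares were 89.7% and 49.9% at starts and 26.9% and 9.81% away from them. At mESC-only regions they were 16.2% and 4.12% at starts and 3.03% and 0.468% away from them. The shares of these proteins over all starts, with or without p300, are not given here. The replicates of these proteins differed in list length, from 12222 to 44310 peaks for Zeb2.

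Marker genes were read as a check of the labels. Together the 11 mESC markers had 94 and 84 mESC peaks against 73 and 86 gastruloid peaks. Of the 10 with single-type regions, mESC-only regions were in excess at 6 and gastruloid-only regions at 4. Over all such genes the shares were 17.8% and 70.0%. The 18 markers of gastruloid tissues had 58 and 44 against 145 and 176 peaks, and gastruloid-only regions were in excess at 15, against 70.0% of all genes with single-type regions. The 3 fibroblast markers had 7 and 5 against 17 and 16 peaks, the 3 trophoblast markers 11 and 8 against 11 and 12, and the 5 adult tissue markers 0 and 1 against 7 and 7. The mESC markers in gastruloids and the fibroblast and adult markers thus also had p300 peaks, and their part in the other counts was not tested.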

How the data were processed

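The deposited files hold 1 peak list per library. Per the submitters' processing notes, fastp 0.20.1, BWA 2.2.1 and MACS2 2.2.7 were used with GRCm38.p6, also given as mm10; roles, order and use of the inputs as control are not given in the sources used here. The authors' score is a whole number per peak. The authors' fold enrichment, a ratio, sets the summit signal against local background. The authors' p-value and q-value are given as −log10, and the lists end near q = 0.05. Depth is not given. Fragments at a summit, solved from fold and −log10 p under a Poisson model, came out whole for 100% of peaks within 0.1% of −log10 p.

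From the 21 main chromosomes, all peaks were taken except those at a peak of either input (0.389% to 0.792%). Overlap was at least 1 bp. Starts were those of RefSeq windows for 17492 of 21887 protein-coding genes, and either gene end for the other 4395. The members and lists were chosen with earlier results of these data known. Named genes were the 10 with the largest excess in each direction whose libraries did not overlap in peak count, the 3 with most regions in each list, those of the profiled and reporter proteins, the strongest regions, start windows and runs of each class, and 19 genes chosen after their values were seen. Of the 459 listed genes 458 were found. The code was tested on simulated lists. Python 3.11.15, numpy 2.4.6, pandas 2.3.3 and scipy 1.17.1 were used. Alternatives were other input removal, −log10 q of at least 5, lists of equal length, other overlaps, windows and assignment distances, and leaving out each library. The p-values over libraries are the smallest that their tests can give. They therefore do not measure the spread between libraries, which may be technical.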

Additional observations from a re-analysis of the deposited data

How the results depend on the processing

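Lists of equal length gave 28911 gastruloid regions, 17961 gastruloid-only regions, 9024 shared loci, and 5110 and 4972 genes with more gastruloid-only and more mESC-only regions. The gap between replicate and cross-type overlap, 40.2 points, was 44.2 points at −log10 q of at least 5, 44.2 with lists of equal length and 42.8 when measured in peaks. Leaving out 1 library in turn gave 31014 to 44506 mESC regions, 53025 to 75346 gastruloid regions, 35856 to 53609 gastruloid-only regions, 15085 to 22393 mESC-only regions, 14558 to 17132 shared loci, 8561 to 12022 genes with more gastruloid-only regions and 1733 to 3994 with more mESC-only regions. A cell type left with 1 library had no filter by 2 replicates, so its regions were all the kept peaks of that library. A start share difference of 12.2 to 15.4 points was found with 1 library left out and of 11.5 to 16.4 points under all other settings. A replicate block, pairing libraries by number, left it at 13.7 with p = 0.5 in an exact permutation test, the smallest that 2 pairs allow. The numbers are only names, and no source says that they mark a shared culture.

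Of 120 named genes, 18 changed direction in at least 1 of the 9 settings run by gene. The excess of gastruloid-only over mESC-only regions changed sign with lists of equal length at Sox2 (-5), Kit (-4), Tcf7l1 (-3), Hes1 (-2), Runx1 (-2) and, each at -1, Sall4, Hand1, Eomes, Ndufb5, Pomc and Klf4. It changed sign within 20 kb at Rtkn2 (2), Sox1 (1), Pim3 (1) and Eomes (-1), and at −log10 q of at least 5 at Klf4 (-1). With 1 library left out it ranged from -1 to 3 at Sox2, from -2 to 4 at Sox1, from -1 to 2 at Hand1, from -1 to 8 at Jarid2, from -3 to 1 at Id4, from -4 to 1 at Atp5o, from -1 to 1 at Klf4 and from -3 to 2 at Crebbp. The cause of these changes was not tested.

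Sites within counting error of the threshold cannot be told from absent sites, and with 2 libraries a group the spread between cultures is not measured.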

Other observations

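Peaks found in only 1 replicate were placed differently in the 2 cell types. In mESCs 14.7% and 14.4% of such peaks lay within 1 kb of a start, against 6.55% and 6.53% of the peaks found in both replicates. In gastruloids the shares were 10.8% and 6.46% for peaks of 1 replicate and 18.9% and 19.5% for peaks of both. The single-replicate peaks were weak in all 4 lists, with median folds of 4.27 and 3.92 in mESCs and 4.05 and 4.43 in gastruloids.

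Where the nearest start was an annotated one within 1 kb, the side of the summit was read. Among mESC regions, the summit lay upstream of the start for 63.9% of 216 mESC-only and 61.6% of 1227 shared regions. The median offsets were −159.5 and −100 bp. Among gastruloid regions, it lay upstream for 44.7% of 5295 gastruloid-only and 55.2% of 1245 shared regions. Here the median offsets were 26 and −37 bp. The input peaks of gastruloids were covered by a p300 peak in 89.5% and 90.1% of cases in the gastruloid libraries and in 32.9% and 23.7% in the mESC libraries. For the input peaks of mESCs the shares were 83.8% and 79.3% in the gastruloid libraries and 64.0% and 57.7% in the mESC libraries. The gastruloid libraries thus covered more of the peaks of either input. Their full lists also spanned more sequence, 33.4 and 29.7 Mb against 20.5 and 15.5 Mb in mESCs. The part of this in the shares was not tested.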
